A study of Homo sapiens with 24 samples.

Results

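The genes described here are 9 genes of nucleotide synthesis and supply grouped around DUT: DUT, TYMS, TK1, RRM1, RRM2, ADA, DCK, DCTPP1 and SLC29A1. They were chosen by name, and DUT was picked because of its entry in the authors' own comparison of senescent with non-senescent cells, so the choice rests on the readout and that entry is neither used nor tested here. For each gene, every H3K4me3 region lying within 2 kb of any start site of its transcripts was taken, and the one with the highest mean is its main region. This gave 24 regions for the 9 genes, out of 97545 regions in the series and 15085 protein-coding genes with a region.

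H3K4me3 was profiled by MINT-ChIP, a multiplexed chromatin immunoprecipitation, in EndoC-βH3 cells. This human beta cell line came from fetal pancreas and was immortalised with transgenes for SV40 large T antigen and hTERT that a tamoxifen-dependent Cre removes. Of the H3K4me3 samples, 4 were non-senescent controls without the drug, and the 4 senescent ones had received 4-hydroxytamoxifen for 3 weeks, at a dose the labels give as 1 mM, with 500000 cells in each sample. The methods of the study state this dose in micromolar units instead, so its unit is uncertain here. The labels give the genotype of all as WT. All are the same line, so the samples do not stand for separate donors. A further 16 samples of other histone marks are not analysed here.

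The value of each region is the authors' mean of normalized counts over the H3K4me3 samples of both states together. One pooled value per region has no standard deviation, shows no individual sample and cannot separate the states, so the levels below are descriptions without a test, and neighbours in any order of levels cannot be set against a replicate spread. Reads per sample are unknown. Wider regions had higher means (Spearman's rho of 0.875 between width and mean across the 15085 genes, which are not independent replicates), and genes are therefore compared per kb of region.

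H3K4me3 marks the nucleosomes that flank active and CpG-rich start sites, where it is laid down by SET1 and MLL complexes. Deoxynucleotides are made by ribonucleotide reductase, which reduces ribonucleotides, and by salvage of deoxynucleosides taken up from outside the cell. Thymidylate has its own route, in which dUTPase supplies dUMP and keeps uracil out of DNA and thymidylate synthase converts dUMP to dTMP. Many of these genes peak in S phase under the control of E2F factors, and beta cells divide rarely in the adult islet.

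DUT encodes dUTPase, and its H3K4me3 lay in a pair of regions on chromosome 15 (hg38, plus strand). The main region, 48332036 to 48333911, had a mean normalized count of 52.3, or 27.9 per kb. The other, 48330122 to 48331536, lay upstream of it, with a mean of 40.9, or 28.9 per kb. Per kb the regions were thus about level, and the upstream count was 78.1% of the main one. A stretch of 500 bp without a region separated them. A second region this strong was not common, as 14.3% of all genes had one above 50% of the first and 5.38% had a pair of regions of at least 40 counts each.

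The pair of regions covers the alternative first exons of DUT. Of its 11 annotated start sites, 6, from 48331011 to 48331473, lay in the upstream region, and among them was the canonical start at 48331429 of DUT-201, with 252 codons. Another 3, from 48332103 to 48332406, lay in the downstream main region, including the start of DUT-202, with 164 codons. The longer and the shorter proteins made from alternative 5′ exons of this gene are the mitochondrial and the nuclear dUTPase. The remaining 2 start sites, of transcripts with no coding sequence, lay in neither region. The H3K4me3 counts are of chromatin and do not show which of these transcripts was made.

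**Figure D1:**
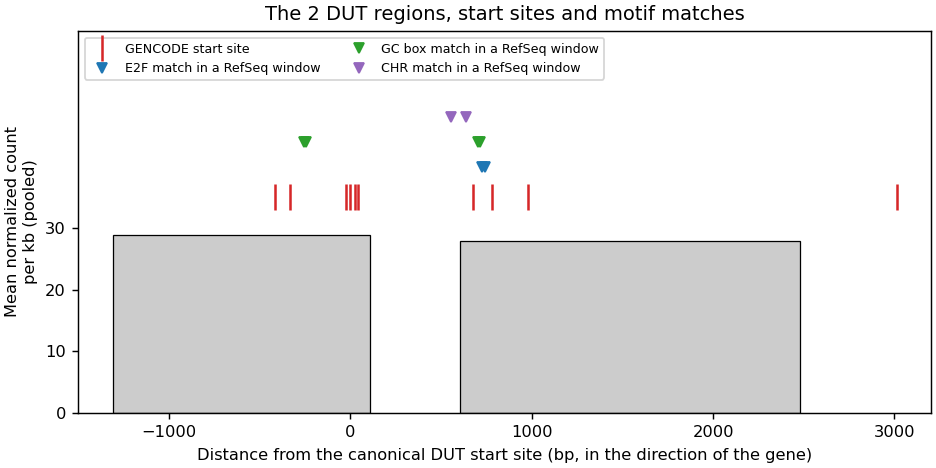
H3K4me3 regions at DUT as grey boxes, with distance from the canonical start in bp on the horizontal axis, pooled mean normalized count per kb as height, start sites as red ticks and motif matches in RefSeq windows as triangles. The upstream region, at 28.9 per kb, holds the canonical start, and the downstream region, at 27.9 per kb, holds 3 further start sites, while the start site at 48341136 lies beyond the axis.

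E2F factors bind a short motif in the promoters of S phase genes, and its letters were searched for as TTTCGCGC, TTTCCCGC, TTTGGCGC and TTTGCCGC on both strands of the RefSeq promoter windows, which run from 250 bases before to 50 bases after each start. A match was found in DUT, TYMS and DCK, that is in 3 of 9 members, against 5.40% of 15843 protein-coding genes. The stretches with these matches are shown because they place the letters under the regions, with the match in capitals, 5′ to 3′ on the gene's strand in hg38. They cover chr15:48332152-48332181 for DUT, chr18:657603-657632 for TYMS and chr4:70993659-70993688 for DCK.
DUT: ctgGCGGGAAAtttcggtTTTGGCGCgctc
TYMS: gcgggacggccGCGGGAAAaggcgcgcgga
DCK: gctgcctccgcGCGCCAAAgtcaaaccccg
In DUT, both matches stood before the downstream RefSeq start at 48332197, with first bases 42 and 27 bases before it. They stood after the GENCODE start of DUT-202, at 48332103, and before those of DUT-208 and DUT-203, at 48332210 and 48332406. All 30 bases shown for DUT lie in GENCODE exons. Both matches lay under the main region, and the upstream region held 0 matches over its 1414 bp.

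TYMS encodes thymidylate synthase. Its main region on chromosome 18, 656935 to 659938, held the canonical start at 657653 and had a mean of 32.8, or 10.9 per kb, above 20.0% of genes per kb. TYMSOS and ENSG00000263727 also start in this region, so its counts cannot be given to TYMS alone. The E2F match lay 39 bases before the TYMS start. The only other region, 500 bp in an intron, had a mean of 1.66.

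TK1 encodes the cytosolic thymidine kinase of the salvage route, and had the lowest level of the 9 genes on either scale. Its main region on chromosome 17, 78186780 to 78187693, had a mean of 6.04, or 6.61 per kb, above 6.87% of genes per kb. It was also the narrowest main region at 913 bp, and it is shared with AFMID, the neighbouring gene that starts in it. All 6 start sites of TK1 lay inside it. A second region upstream of the gene had a mean of 2.41.

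RRM1 encodes the large subunit of ribonucleotide reductase. Its main region on chromosome 11, 4093566 to 4096752, held the canonical start at 4094799 and had a mean of 73.0, or 22.9 per kb. This was above 63.2% of genes per kb. Its second region, of 5.07, was 1762 bp from the nearest start site and so close to the edge of the 2 kb window.

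RRM2 encodes the small subunit, whose level follows the cell cycle. Its main region on chromosome 2, 10120221 to 10122295, had a lower mean than that of RRM1, 21.6, or 10.4 per kb. The second, at 10123134 to 10124628, reached 14.9, or 68.9% of the first. Between them lay a region of 500 bp, 10122606 to 10123106, with a mean of 2.11, and this weak region was the one that held the canonical start at 10122739. The 2 stronger regions thus flanked the canonical start, and neither contained it. They did hold other annotated starts of RRM2, 2 in the main region and 1 in the second. The last region, in an intron, had a mean of 1.02.

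The subunit genes differed in the size of their main region, 3186 bp against 2074 bp, and in the number of regions, 2 for RRM1 and 4 for RRM2. The share of all genes with 4 or more regions was 6.79%. The weakest RRM2 regions, of 2.11 and 1.02, lay below the lower quartile of all regions, 2.25.

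CCAAT boxes, the letters CCAAT on either strand, which NF-Y binds in many cell cycle promoters, were found in RRM1, RRM2 and TK1, in 3 of 9 members against 42.1% of protein-coding genes. RRM2 had 3 of them in its canonical window, starting 123, 93 and 66 bases before the start, and TK1 had 2, starting 77 and 46 bases before it. The box nearest the canonical start is shown for both, in capitals, because these are the members with repeated boxes. The stretches are chr2:10122661-10122690 for RRM2 and, on the minus strand, chr17:78187081-78187110 for TK1, where the box reads in reverse complement.
RRM2: ggggcaccaaagCCAATgggaagggccggg
TK1: ggccggctcgtgATTGGccagcacgccgtg

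ADA encodes adenosine deaminase, which removes adenosine and deoxyadenosine. It had the highest level per kb of the 9 genes, 48.0, from a mean of 59.5 over the 1238 bp of chromosome 20 at 44651632 to 44652870. That was above 97.8% of genes per kb and 57.6% by the count itself. The region ran from -1171 to 67 bp of the canonical start at 44651699, on the minus strand. Nearly all of it thus lay upstream of that start, but it held 27 of the 44 annotated ADA start sites. It was also rich in CpG, with an observed over expected ratio of 0.874, above 98.1% of genes. Its 2 further regions, at 9.07 and 2.24, began 27509 and 29654 bp after the canonical start, near the starts of other transcripts.

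The canonical window of ADA had 5 GC boxes (GGGCGG on either strand, bound by SP1), some of them overlapping by a base. The stretch with all 5 is shown because no other member window had as many, with the boxes in capitals, for the minus strand of chr20:44651746-44651808.
ADA: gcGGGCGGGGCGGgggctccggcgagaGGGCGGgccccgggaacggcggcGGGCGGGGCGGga
A GC box was found in 8 of 9 members and in 64.3% of protein-coding genes.

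DCK encodes deoxycytidine kinase, which phosphorylates deoxycytidine, deoxyadenosine and deoxyguanosine. It had 1 region, on chromosome 4 at 70991860 to 70998131, with the highest count of the 9 genes, 117. The region was also the widest, at 6271 bp, wider than those of 96.2% of genes, and per kb the level was 18.6, above 48.6% of genes. DCK thus led by count, while ADA, DUT and RRM1 were above it per kb. Its E2F match lay 21 bases after the start.

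DCTPP1 encodes a pyrophosphatase that breaks down dCTP and modified forms of it. Its single region on chromosome 16, 30429265 to 30430634, held all 5 of its start sites and had a mean of 20.4, or 14.9 per kb, above 34.0% of genes per kb.

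SLC29A1 encodes the equilibrative nucleoside transporter ENT1. It had 7 regions, all on chromosome 6, and 0.742% of all genes with a region had 7 or more. Regions were collected around each of its 21 annotated start sites. The main region, 44223779 to 44228711, had a mean of 74.1, or 15.0 per kb. It began 184 bp after the canonical start at 44223595 and held 10 of the 21 start sites. The second, 44218878 to 44220537, reached 16.1 and held 5 other start sites. The other 5 held no start site and ranged from 2.66 to 9.70, and the strongest of these lay 1541 bp from the nearest start site. The CpG ratio of the main region, 0.240, was above that of only 4.87% of genes, at the opposite end of the range of main regions from ADA. This region lies after the canonical start, so the ratio is not that of the sequence before it. The RefSeq window at the canonical start, which lay in no region, had a ratio of 0.932, beside 1.03 in the window of ADA.

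**Figure D2:**
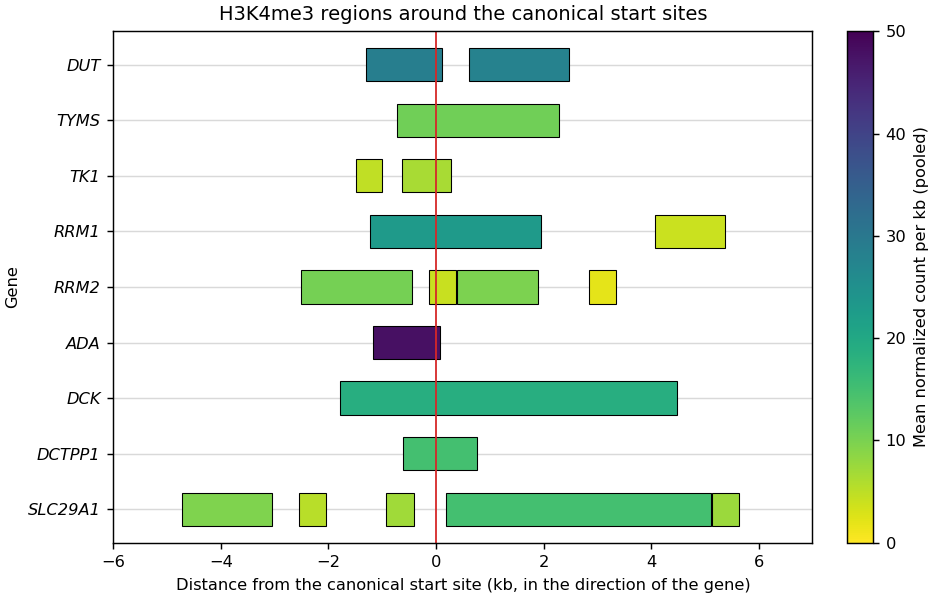
H3K4me3 regions of the 9 genes drawn to scale by distance in kb from the canonical start of each gene, in the direction of transcription, with the canonical start as a red line and the pooled mean normalized count per kb as colour. The map runs from -6 to 7 kb and leaves out 5 regions farther away, and it shows the start of RRM2 between its 2 stronger regions and the start of SLC29A1 just before its main region.

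The canonical start was held by the main region in 6 of 9 genes, the exceptions being DUT, RRM2 and SLC29A1, and in 64.1% of all genes. Of the 24 regions, 14 overlapped a start site of their gene, 8 were exactly 500 bp wide and 9 had a mean under 5. The median over all 97545 regions was 4.40, with quartiles of 2.25 and 12.8. DCK and DCTPP1 had 1 region each, as did 55.5% of all genes.

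**Figure D3:**
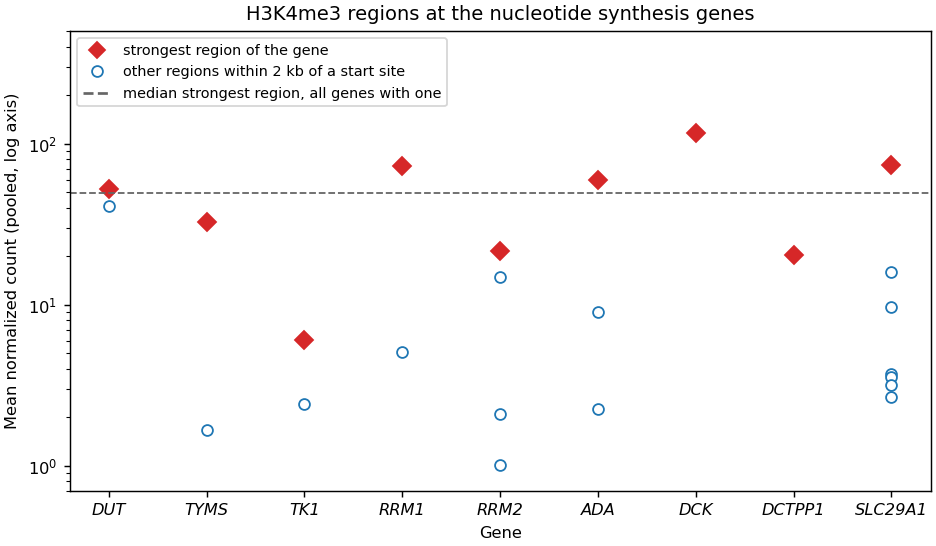
Pooled mean normalized count of each of the 24 regions, by gene on a log axis, with the main region as a red diamond, other regions as open circles and the median main region of all genes, 49.2, as a dashed line. Main regions run from 6.04 at TK1 to 117 at DCK, and only DUT and RRM2 have a second region above 50% of the first.

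Set among all protein-coding genes with a region, the 9 genes spread over most of the range. By mean normalized count the highest was 19.4 times the lowest, and per kb 7.26 times. By count, 5 of 9 lay above the median of all genes, 49.2, and the median member was DUT at 52.3. Per kb only ADA, DUT and RRM1 lay above the median of all genes, 19.0, and the median member was SLC29A1 at 15.0. From highest to lowest per kb the order was ADA, DUT, RRM1, DCK, SLC29A1, DCTPP1, TYMS, RRM2 and TK1. SLC29A1 and DCTPP1, at 15.0 and 14.9, and TYMS and RRM2, at 10.9 and 10.4, were nearly level. The enzymes that make or spare thymidylate did not stand together, as DUT lay above 77.8% of genes per kb, TYMS above 20.0% and TK1 above 6.87%.

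**Figure D4:**
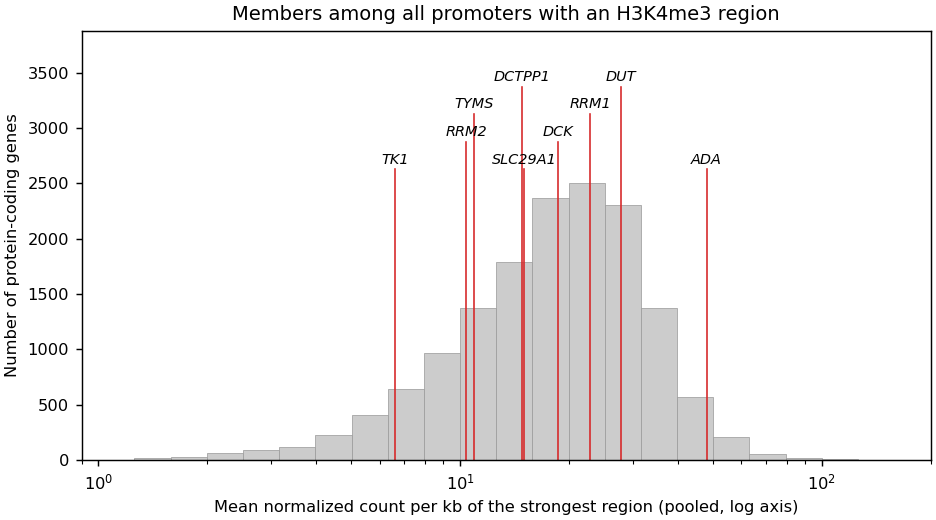
Distribution of the pooled mean normalized count per kb of the main region over 15085 protein-coding genes, on a log axis, with the 9 genes as red lines. ADA at 48.0 lies in the upper tail, TK1 at 6.61 in the lower, and the median of all genes is 19.0.

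The wider pathway was read from 7 lists of nucleotide metabolism genes, in which 59 of 62 genes had a region. Their median was 17.3 per kb, or 17.6 for the 50 of 53 with a region that are not among the 9 genes, beside 19.0 over all genes. In the thymidylate and dUTP list, 11 of 11 genes had a region, with a median of 18.2. DTYMK, the kinase acting on the product of TYMS and TK1, was highest at 46.9, and SHMT1, which supplies one-carbon units, was lowest at 6.53. The 3 reductase genes had a median of 14.6, with RRM1 highest and RRM2 lowest. In the salvage and pool control list, 11 of 12 had a region, with a median of 17.3. ADA was the highest of these and NT5M, a mitochondrial nucleotidase, the lowest at 9.98, and CDA, cytidine deaminase, had no region. Of the nucleoside transporters, 5 of 7 had one, with a median of 11.7, and SLC29A1 was the highest. SLC28A2 was lowest at 1.78, and the concentrative transporters SLC28A1 and SLC28A3 had none.

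Of the lists without a member, de novo pyrimidine synthesis had 6 of 6 genes with a region and a median of 26.5, between CAD at 36.5 and DHODH at 15.1. The 13 de novo purine genes had a median of 15.9, between GART at 51.2 and ADSS1 at 7.21. The 10 genes of ribonucleotide salvage and kinases had a median of 16.8, between NME1 at 52.4 and HPRT1 at 7.80.

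**Figure D5:**
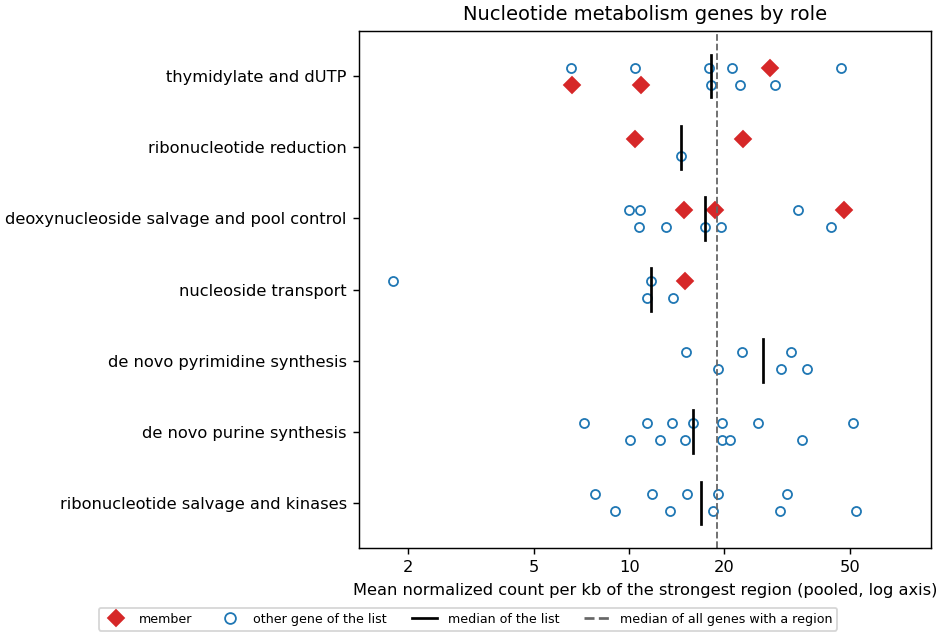
Pooled mean normalized count per kb of the main region for the genes of 7 nucleotide metabolism lists, on a log axis, with the 9 genes as filled diamonds, other genes as open circles and the median of each list as a black line. The dashed line is the median of all genes, 19.0, and the list median is above it for de novo pyrimidine synthesis alone.

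The sequence under the regions varied as widely. GC content of the main regions ran from 43.9% at DCK and 45.9% at DUT to 60.5% at TK1, and 6 of 9 lay above the 51.3% median of all genes. These values are of whole regions, and the RefSeq promoter windows gave another order. There GC content was 76.3% at DCK, 64.0% and 69.0% at TK1, and 55.7% to 68.7% at DUT. Over whole main regions, which differ in length, an E2F match was present in 6 of 9 genes, namely DUT, TYMS, RRM1, DCK, DCTPP1 and SLC29A1, and in 17.0% of all genes. The letters of the CHR element of cell cycle promoters (TTTGAA) were found in windows of DUT, RRM1 and SLC29A1 and in 15.8% of genes, and those of a TATA box (TATAAA) in TK1 alone of the 9 and in 12.4% of genes. A match is a description of the letters, and its use in these cells was not measured. Most stretches of 24 bases in these regions occur once in the genome, and in the main regions the share that recurs reached at most 13.7%, at RRM1, against 0.756% at DUT.

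Of the gene lists that the study used, its cell cycle list holds TYMS, RRM1 and RRM2, and its list of E2F targets holds DUT, TK1, RRM2, DCK and DCTPP1. ADA is in its p53 list, and SLC29A1 is in none of these.

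Markers of beta cells had a region in 11 of 12 genes, with a median of 25.2 per kb (259 as a count) beside 19.0 per kb over all genes. ISL1 had the highest of them, 38.1 per kb, INS and IAPP were lower, at 14.0 and 7.56 per kb, and MAFA had no region within 2 kb. The acinar list had 3 of 5 with a median of 2.88 per kb, and the duct list 4 of 4 with 8.90. The other islet endocrine list had 5 of 7 with 12.2, and the list of stroma, endothelium and immune cells 4 of 7 with 10.8. The highest genes of these last lists, IRX2 at 31.5 and CD68 at 31.9 per kb, were above the beta cell median. The highest of the acinar and duct lists were CPA1 at 6.59 and SLC4A4 at 12.7.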

How the data were processed

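H3K4me3 MINT-ChIP reads of 8 samples were aligned to hg38 with Bowtie2 by the authors, who called peaks with HOMER and used DESeq2. How regions were merged and reads counted is not given in the sources used here. The signal of a region is the deposited DESeq2 base mean, the authors' mean normalized count over samples of both states. The 5 further columns hold the authors' own comparison of the states (fold change, its error, test statistic, p-value and adjusted p-value) and were not used.

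Regions were linked to GENCODE 44 start sites within 2 kb (Python 3.11.15, pandas 2.3.3, numpy 2.4.6), after a test of the linking on simulated data. Table coordinates are printed as deposited, and whether they count from 0 or 1 is unknown. Sequences are from RefSeq (GRCh38.p14) windows, 15 for the 9 genes, each identical to hg38. Motif letters were matched exactly on both strands.

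Genes named beside the members are those sharing a main region, the highest and lowest per kb in each list, those without a region, and the markers. Members and lists were chosen with earlier results of these data known, and the printed sites after their matches were seen. No test was made. Alternatives changed the window, the choice of main region and the ranking.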

Additional observations from a re-analysis of the deposited data

How the results depend on the processing

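With start sites limited to the canonical transcript, the 9 genes had 14 regions in place of 24, since regions at alternative starts drop out. The median member's place among all genes was above 52.4% of them by count and above 34.5% per kb, and the cause was not tested. E2F letters were found in 3 members in the promoter windows and in 6 over whole main regions, which are longer. The only DCTPP1 window is set on a RefSeq start at 30429800 and ends at 30430050. It thus covers little of the sequence before the canonical start at 30430030. A match in the second region of RRM2, 10123134 to 10124628, is in neither count. Summing all regions of a gene gave DUT 93.2, RRM2 39.6 and SLC29A1 113. The other 17 summary values and 51 single-gene values moved by less than 1.5-fold, or by less than 10 percentile points for a place among genes, windows of 1 and 5 kb and coding transcripts only (chosen after seeing the data) included. Some of these could not move. Each main region overlaps a start site of its gene. The 1 kb window and the choice of the region nearest to a start site therefore had to return the same region for each of the 9 genes. No paired analysis was possible because the pooled mean holds no value per sample, and for that reason no replicate could be left out. Regions under 5 counts are the least certain, and depth per sample is unknown.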

Other observations

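Beyond the 2 kb window, 12 more regions lay within 10 kb of the 9 genes. The nearest was a region of 16.0 mean normalized counts in ADA, 2313 bp from a start site, followed by 4.27 in an intron of RRM1 at 2552 bp and 2.88 after SLC29A1 at 2804 bp. The strongest of the 12 was 23.2, in an intron of DCK 9929 bp from a start site, and 20.4 was reached after SLC29A1, 4761 bp from one. DCK had a single region inside the window and this one outside it, while DUT had none in its surroundings above 2.68.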
